A study of Mus musculus with 1989 samples.

Results

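Mature CD8 single-positive (CD8 SP) thymocytes were taken from a single-cell RNA library of mouse thymus as 93 of 1993 cells, or 4.67%. The 300 cells with the highest mean value over 6 genes of thymocyte maturation, Klf2, Ccr7, Ms4a4b, Ltb, Shisa5 and Cd52, were kept first. Among these 300, the CD8 SP cells were those with a Cd8b1 value of at least 2 and a Cd4 value of 0. They made up 31% of the 300. The cut at 300 sets these shares, and the same thresholds gave 59 cells among the highest 200 and 122 among the highest 400. The remaining 207 cells of the 300 were divided by the same thresholds. In 87 cells Cd4 was above 0 and Cd8b1 below 2, which is called the CD4 side here. In 36 cells both coreceptors passed, and in 84 cells neither did. The 1693 cells outside the 300 served as the wider comparison.

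The library was 1 sample of total thymocytes from male C57BL/6 mice of 7 weeks, for which the labels name no transgene or treatment, made with the droplet 3′ chemistry of 10x Genomics. No animal is named for it, so no difference between cells could be tested against a spread between animals. Intervals on shares of cells are exact binomial 95% intervals and cover counting error only, and an SD is a spread over cells. The same study also sorted CD8 and CD4 thymocytes from mice of the same strain, sex and age for single-cell chromatin accessibility (scATAC), which is used below as a readout that did not choose the cells. The gates of these sorts are not given in the sources used here, so immature cells in them cannot be told apart from mature ones, and each sort counts as 1 sample.

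CD8 SP thymocytes arise from double-positive (DP) precursors that bind class I MHC with self peptide. Runx3 silences Cd4 and maintains the CD8 program in them, while Zbtb7b, which encodes ThPOK, does the reverse in cells that bind class II MHC. After this choice the cells mature in the medulla, lose Cd69, gain S1pr1 and leave for the blood. CD8 cells already carry part of the cytotoxic gene program before they meet an antigen.

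Values are the deposited log2 values, in which 79.7% of all entries are 0 and a single step above 0 has a different size in each cell. Numbering the different values of a cell upward from 0 gives each gene a whole number of steps, which stands in for reads. The median total was 2555 steps in CD8 SP cells, 2165 on the CD4 side, 2934.5 in cells with both coreceptors, 1993 in cells with neither and 2683 in the other cells. For the genes the results turn on, the share of cells above 0 is therefore also given after each cell was thinned to 1300 steps, and other shares are as deposited. The mean over the 13 mitochondrial genes was 2.87 ± 0.24 in CD8 SP cells, 2.83 ± 0.24 on the CD4 side and 2.79 ± 0.32 in the other cells.

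The 8 genes that chose the cells are a description and carry no test. The maturation score of CD8 SP cells ran from 1.95 to 3.21 with a median of 2.33. The last cell inside the 300 scored 1.9506 and the first outside 1.9472. Cd8b1, the beta chain of the CD8 coreceptor, had a mean of 3.07 ± 0.72 in the 93 cells, with a lowest value of 2.00, a median of 3.00 and a highest of 4.60. The highest Cd8b1 value left out for being below the threshold, among cells with Cd4 at 0, was 1.98. Cd52, Shisa5, Ltb and Ms4a4b were found in 100%, 100%, 93.5% and 92.5% of CD8 SP cells. Klf2, the factor that drives exit genes, was less even, with a mean of 1.60 ± 1.27 and a value above 0 in 69.9% of cells. On the CD4 side Klf2 reached 2.14 ± 1.08 and 93.1%. Ccr7, the chemokine receptor that guides cells to the medulla, was above 0 in 53.8% of CD8 SP cells and 66.7% of CD4-side cells.

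Thresholds on sparse values leave some cells on the wrong side. Of the CD4-side cells, 67.8% still had a Cd8b1 value above 0, and so did 90% of the 30 class II high cells outside the 300, which are antigen-presenting cells by a mean of at least 2 over H2-Aa, H2-Ab1, H2-Eb1 and Cd74. The Cd8b1 mean of those class II high cells was 1.93 ± 1.31, with 66.7% of cells above 0 after thinning. A Cd4 value of 0 is also weak evidence alone, since only 69% of CD4-side cells kept a Cd4 step after thinning. Outside the 300, 436 of the 1693 cells likewise had Cd8b1 of at least 2 with Cd4 at 0.

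**Figure D1:**
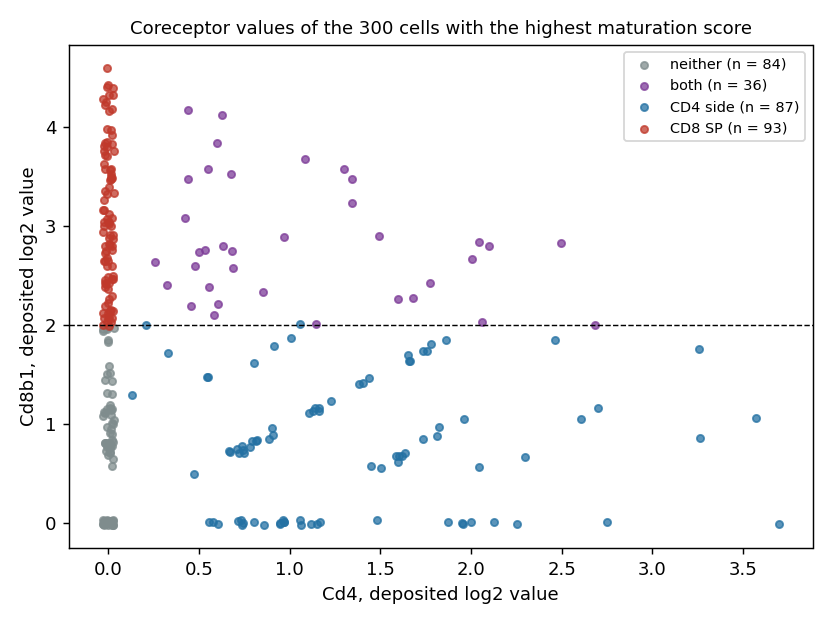
Cd4 (horizontal axis) and Cd8b1 (vertical axis), both as deposited log2 values, in the 300 cells with the highest maturation score. Each point is a cell, moved slightly at random, and the dashed line marks the Cd8b1 threshold of 2. The 93 CD8 SP cells form the column at Cd4 of 0 above the line, from 2.00 to 4.60.

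Genes that did not enter the rule bear on the name. Runx3 was above 0 in 52 of 93 CD8 SP cells, or 55.9% (45.2 to 66.2), and in 9.2% (4.05 to 17.3) of the CD4 side, beside 20% of class II high cells. Thinned, the first pair of Runx3 shares was 35.5% (25.8 to 46.1) and 5.75% (1.89 to 12.9). Runx3 comes from a list of 15 CD8 coreceptor and lineage regulators, of which 11 were above 0 in enough cells to be compared. Against the CD4 side Runx3 and Cd8a were higher by at least 0.5, where 0.391% of all genes were. In mean difference 8 of the 11 lay below 0, with a median of -0.09 beside 0.02 for all genes. Zbtb7b was above 0 in 5.38% (1.77 to 12.1) of CD8 SP cells and 23% (14.6 to 33.2) of CD4-side cells, or 2.15% and 16.1% when thinned. No CD8 SP cell held both Runx3 and Zbtb7b, while 52 held Runx3 alone and 5 Zbtb7b alone. Cd40lg, a helper gene, was above 0 in 4.3% of CD8 SP cells and 19.5% of the CD4 side, or 2.15% and 12.6% thinned. Foxp3, which marks regulatory T cells, was found in 0 of 93 cells. A count of 0 limits the share of cells with a detected value to about 3.23%, and not the share of cells that express the gene.

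Of the CD8 SP cells, 77 held at least 1 of Nkg7, Runx3 and Ctsw, which is 82.8% (73.6 to 89.8), and 31 held all 3. On the CD4 side 29 of 87 cells held at least 1, or 33.3% (23.6 to 44.3), and 0 held all 3. Thinning left 68.8% and 23%. The share was 69.4% (51.9 to 83.7) in cells with both coreceptors, 47.6% in cells with neither and 36.7% in class II high cells. All 3 genes come from the same contrast, so this share describes the cells and does not test their name. The 16 CD8 SP cells without any of the 3 genes could not be placed by them.

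Markers of other cell types were counted too. The B cell genes Cd79a and Ms4a1 were found together in 2 of the 93 cells, with Cd79a at 4.00 and 3.38, Cd74 at 5.82 and 6.14, and Trac, the constant part of the T cell receptor alpha chain, at 0 in both. These 2 cells go against the name. Their Cd8b1 values were 2.77 and 2.02. The summed value of 4 B cell markers ran from 0.00 to 11.16 in CD8 SP cells and from 0.00 to 1.16 on the CD4 side. At least 1 of those markers was above 0 in 11 and 2 cells. All 4 gamma delta receptor genes were above 0 in 1 cell, with sums from 0.00 to 9.35 in CD8 SP cells and from 0.00 to 1.69 on the CD4 side. Both groups held dividing cells, with all 3 of Mki67, Top2a and Cdk1 above 0 in 2 and 1 of them. Of 6 innate lymphocyte markers 4 were in the table, and 5 CD8 SP cells held at least 2 of them. The summed value of these 4 ran from 0.00 to 6.33 in CD8 SP cells and from 0.00 to 1.16 on the CD4 side. Immature thymocyte genes were present at low levels: Dntt was above 0 in 49.5% of CD8 SP cells, 34.5% of the CD4 side and 73.3% of class II high cells. Rag1 was found in 26.9% of CD8 SP cells and 19.5% of the CD4 side, but after thinning Rag1 was left in 12.9% and 14.9%, the other order. All 11 DP stage genes counted had a higher mean in CD8 SP cells than on the CD4 side, with a median difference of 0.10, where 56.4% of all genes counted were higher, with a median of 0.02. Of the DP genes too rare to be counted, Rag2 was at -0.03 and Nrgn at -0.04. Against the rest of the 300, 12 DP stage genes were counted, 6 above 0 and 6 below, with a median of 0.01. The part of these cells and genes in the differences below was not tested, beyond leaving cells out.

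Against the CD4 side, 2559 genes were counted, which means above 0 in 20% or more of the cells on 1 side or the other, with the 8 genes of the rule left out of this and every later count. A mean log2 difference of at least 0.5 was reached upward by 10 of them, which is 0.391%, and downward by 4, which is 0.156%. The median difference over all 2559 genes was 0.016. Both groups came from the same 300 cells, and both were chosen by coreceptor values, so all of these differences describe the chosen cells. Without the class II high cells 12 genes were higher and 4 lower, and all 10 and 4 stayed past 0.5. Without cells with at least 2 innate or gamma delta markers, 8 of the 10 and 4 of the 4 stayed, and Ctsw and Selplg did not. With other numbers of cells or other coreceptor thresholds, Bcl2, Ctsw, Selplg, Rgcc, Cox8a and, among the lower genes, Gm12840 each fell below 0.5 at least once, while Nkg7, Runx3, AW112010 and Ccr9 did not.

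Outside the rule, the difference was largest for Nkg7, a membrane protein of the granules of cytotoxic cells. Its mean was 1.29 ± 1.26 in CD8 SP cells, with a lowest value of 0.00, a median of 0.97 and a highest of 4.09. On the CD4 side it was 0.04 ± 0.29, with a median of 0.00 and a highest of 2.53. In terms of cells, Nkg7 was above 0 in 64.5% (53.9 to 74.2) against 2.3% (0.28 to 8.06), and in 45.2% against 1.15% after thinning. The class II high cells had it in 6.67%. The groups overlapped through the CD8 SP cells without Nkg7 and 2 CD4-side cells with it.

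Cd8a, the alpha chain of the CD8 coreceptor, was not used by the rule and followed Nkg7. Its mean was 1.75 ± 1.11 in CD8 SP cells and 0.60 ± 0.73 on the CD4 side, a difference of 1.15. Many cells overlapped, since 51.7% of CD4-side cells and 73.3% of class II high cells also had a Cd8a value above 0. Runx3 differed by 0.69, from 0.77 ± 0.83 to 0.08 ± 0.26.

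Ctsw, a cysteine protease of cytotoxic lymphocytes, differed by 0.51, with 60.2% (49.5 to 70.2) of CD8 SP cells and 27.6% (18.5 to 38.2) of CD4-side cells above 0, or 33.3% and 18.4% thinned. AW112010 differed by 0.66 and was found in 61.3% and 23% of cells, or 35.5% and 17.2% thinned. It was also found in 83.3% of class II high cells. Bcl2, which protects lymphocytes from death, differed by 0.50, from 1.58 ± 1.22 in CD8 SP cells to 1.07 ± 1.20 on the CD4 side. It was below 0.5 with 200 cells in place of 300, with Cd8b1 of at least 1 or at least 3, and with Cd8a in place of Cd8b1.

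The other genes past 0.5 had varied roles. Ccr9, the receptor for the thymic and gut chemokine CCL25, differed by 0.63, with means of 1.01 ± 1.10 and 0.39 ± 0.67. The other cells had a still higher mean Ccr9 of 1.34 ± 1.22. Selplg, a glycoprotein of cell adhesion, differed by 0.56 and was found in 83.9% of CD8 SP cells and 60.9% of the CD4 side, or 60.2% and 41.4% thinned. Rgcc, a regulator of the cell cycle, differed by 0.65, and Cox8a, a subunit of cytochrome c oxidase, by 0.54. Cnn2 and Plac8 came next, both at 0.49. Plac8 was above 0 in 33.3% against 10.3% of cells, and in 46.7% of class II high cells.

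The 4 genes outside the rule that were lower by at least 0.5 were Ifi27l2a, Tspan32, Gm12840 and Igfbp4. Ifi27l2a, an interferon-induced gene, had a mean of 2.49 ± 1.49 in CD8 SP cells and 3.20 ± 1.44 on the CD4 side, while both groups lay above the 0.44 ± 0.93 of the other cells. Tspan32, a tetraspanin of blood cells, had means of 0.62 ± 0.85 and 1.27 ± 1.03 and was above 0 in 46.2% (35.8 to 56.9) and 74.7% (64.3 to 83.4) of cells, or 34.4% and 55.2% thinned. Igfbp4, a binding protein of insulin-like growth factors, differed by -0.57, and Gm12840 by -0.62. Below them followed Tesc at -0.47, Itm2a at -0.47, Cd28, the costimulatory receptor, at -0.45, Cytip at -0.39, Rgs10 at -0.38, Fxyd5 at -0.37, Smc6 at -0.36 and Ets1 at -0.34. Itm2a, a gene of positive selection, was above 0 in 31.2% (22.0 to 41.6) of CD8 SP cells and 57.5% (46.4 to 68.0) of the CD4 side, or 23.7% and 46% thinned. Tesc had 44.1% against 66.7%.

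**Figure D2:**
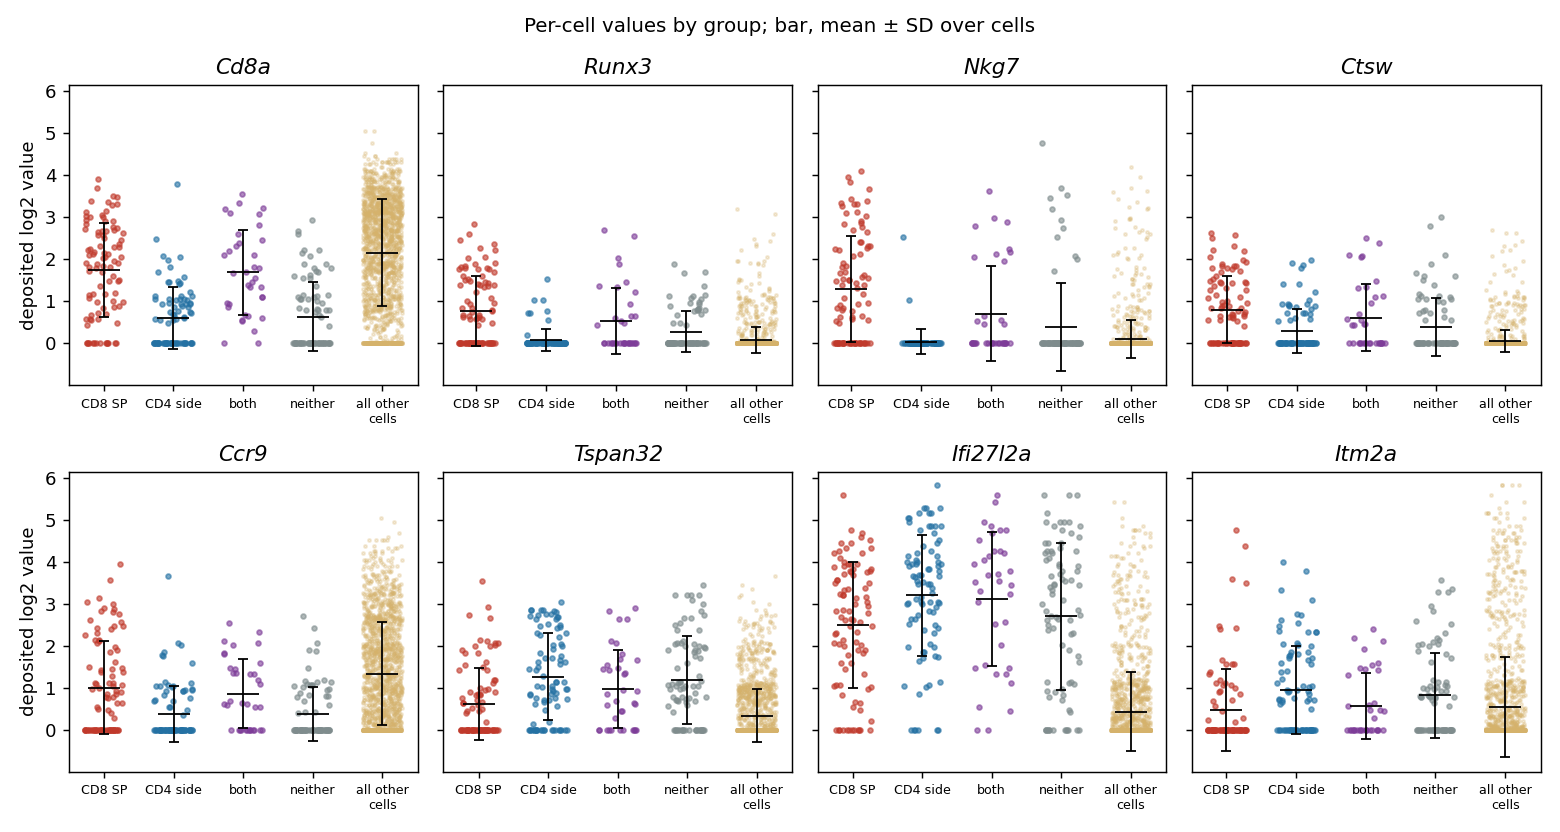
Deposited log2 values of 8 genes in single cells, with the group on the horizontal axis and each point a cell. Black bars give the mean and SD over cells. Nkg7 and Runx3 sit near 0 on the CD4 side, with means of 0.04 and 0.08, while Cd8a and Ccr9 are as high or higher in the cells outside the 300.

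Depth differed between the groups, and the size of these differences depended on the scale. On log2(thinned step + 1), where each cell had the same total, 2 of the 10 higher genes and 0 of the 4 lower ones stayed past 0.5, and the 2 were Nkg7 and Cd8a. On that scale Nkg7 had means of 0.75 and 0.01, Runx3 0.41 and 0.06, and Tspan32 0.43 and 0.72.

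The sorted cells gave a readout that the rule did not use. Counts in 62546 non-overlapping peaks were assigned to the nearest start of a protein-coding gene, and the share of counts at each gene was compared between 116 CD8 sorted and 119 CD4 sorted cells, with totals of 303858 and 356079 counts. Each sort was 1 sample, so the ratio has only a counting interval. Among 6940 genes with at least 30 counts, 49.7% had a ratio above 1 and 50.3% below 1. Of the 12 genes with the largest positive mRNA difference to the CD4 side, 8 had enough counts. Of the 8, 7 had a ratio above 1, with a median of 1.37. Among them Cox8a was at 1.00 (0.596 to 1.68), and the intervals of Selplg and Bcl2 also included 1. Rgcc lay below 1, at 0.809 (0.586 to 1.11). Of the 12 with the largest negative difference, 9 had enough counts, and 7 of the 9 had a ratio below 1, with a median of 0.933. Of these 9, Tspan32 alone had an interval that left out 1, and Tesc was at 0.992 and Cd28 at 0.971. With peaks within 10 kb of the start only, 5 of 8 of the lower genes lay above 1, with a median of 1.16, so the direction for that set turned. The CD8 sort selects on the CD8 protein, and Cd8a is 1 of the 8 higher genes.

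At Cd8b1 the CD8 sort had 83 counts and the CD4 sort 32, a ratio of 3.04 (2.00 to 4.72). At the adjoining Cd8a gene the counts were 60 and 40, with a ratio of 1.76 (1.16 to 2.69). A peak at chr6:71332023-71336022 (GRCm38), 11234 bases from the Cd8b1 start, had 15 counts in 11 CD8 sorted cells and 2 counts in 1 CD4 sorted cell. The peak over the Cd8b1 start itself was open in both, with 43 and 24 counts. At chr6:71367585-71371584, 3843 bases from the Cd8a start, there were 26 and 8 counts, while at chr6:71374955-71378954, 3401 bases from it, there were 4 and 10.

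Runx3 had 119 and 96 counts, a ratio of 1.45 (1.10 to 1.92). A peak at chr4:135112718-135116717 had 10 counts in 8 CD8 sorted cells and 0 in CD4 sorted cells, and a peak at chr4:135096665-135100664 had 18 and 4. Both lie before the distal start. The peak over the distal Runx3 start had 32 and 20 counts. A peak 3030 bases from another Runx3 start had 8 and 11.

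Ctsw had a ratio of 4.69 (1.26 to 25.9) from only 12 and 3 counts, below the minimum of 30. Ccr9 had 1.59 (1.09 to 2.32), Plac8 2.34 (1.16 to 4.97) and Thy1 2.00 (1.42 to 2.85). With peaks within 10 kb alone these were 1.34 (0.789 to 2.29), 1.01 (0.280 to 3.51) and 1.53 (0.897 to 2.62), so that each interval included 1. Itgae, the alpha E integrin that binds E-cadherin on epithelium, had 29 and 12 counts and a ratio of 2.83 (1.40 to 6.09). Its mRNA was above 0 in 19.4% of CD8 SP cells and 1.15% of the CD4 side, and Itgae was left in 10.8% and 0 when thinned. Lower in the CD8 sort were Tspan32, at 0.493 (0.257 to 0.906), and Slfn1, a gene of naive T cells, at 0.412 (0.201 to 0.793). Slfn1 mRNA was above 0 in 22.6% of CD8 SP cells and 46% of the CD4 side, or 16.1% and 34.5% thinned.

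Several intervals included 1. Zbtb7b had 15 and 29 counts and a ratio of 0.606 (0.302 to 1.17), Cd4 1.20 (0.740 to 1.96) and Bcl2 1.23 (0.951 to 1.59). Nkg7 had 5 and 6 counts at its single peak, an interval of 0.236 to 3.84. With all peaks, which overlap so that 1 fragment can count more than once, Zbtb7b was at 0.233 and Cd4 at 0.714, so neither value is settled by the non-overlapping peaks. Bcl2 was then at 1.37 (1.09 to 1.73), with an interval that left out 1. Tspan32 was then at 0.749 (0.544 to 1.02), with an interval that included 1, so these values are not settled either. That setting was chosen after the data were seen. The labels of the sorted cells fall into a series of numbers from 4000 and another from 31000. Within the first the ratio was 2.99 for Cd8b1 and 1.36 for Runx3. The series from 31000 held 20 of the CD8 sorted cells with 19335 counts and 55 of the CD4 sorted cells with 65331. The ratios over all sorted cells therefore mix the series in different proportions. In the series from 31000 Cd8b1 had 1 and 4 counts, Ccr9 1 and 5 and Tspan32 3 and 2, which gave ratios on the other side of 1.

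**Figure D3:**
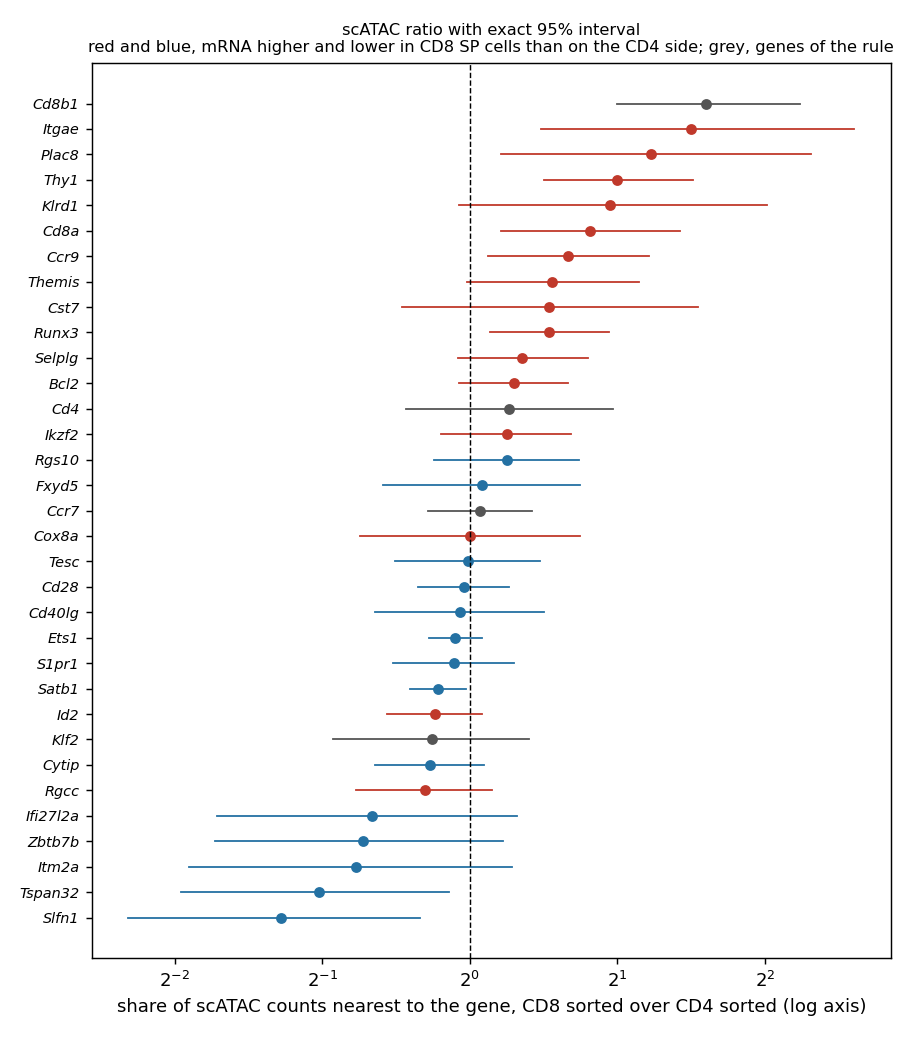
Ratio of the share of scATAC counts nearest to each gene, CD8 sorted over CD4 sorted cells, on a log axis, with exact 95% intervals for counting error. Genes are in order of their ratio. Red and blue mark genes with higher and lower mean mRNA in CD8 SP cells than on the CD4 side, and Cd8b1, at 3.04, stands at the top.

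Promoter sequences are shown for Nkg7, Runx3 and Tspan32, from RefSeq on GRCm38.p6 and each from 250 bases before to 50 after the transcription start. Both strands were searched for TGTGGT, the core letters bound by Runx factors, whose reverse complement is ACCACA, and matches are in capitals. Nkg7 has 1 match, 83 bases before the start. Runx3 has 2 at its distal promoter, 134 and 126 bases before the start. Tspan32, which was lower, also has 2. Plac8 has 3 at 1 of its promoters and Cytip, which was lower, has 1. Nkg7 lies at chr7:43436888-43437187, Runx3 at chr4:135120395-135120694 and Tspan32 at chr7:143004796-143005095, all on the plus strand.
Nkg7: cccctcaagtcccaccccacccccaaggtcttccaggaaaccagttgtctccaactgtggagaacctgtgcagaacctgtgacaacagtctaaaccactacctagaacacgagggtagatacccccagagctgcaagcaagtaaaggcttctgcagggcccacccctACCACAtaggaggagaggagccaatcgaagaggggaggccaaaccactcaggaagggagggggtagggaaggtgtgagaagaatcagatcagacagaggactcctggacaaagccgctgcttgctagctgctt
Runx3: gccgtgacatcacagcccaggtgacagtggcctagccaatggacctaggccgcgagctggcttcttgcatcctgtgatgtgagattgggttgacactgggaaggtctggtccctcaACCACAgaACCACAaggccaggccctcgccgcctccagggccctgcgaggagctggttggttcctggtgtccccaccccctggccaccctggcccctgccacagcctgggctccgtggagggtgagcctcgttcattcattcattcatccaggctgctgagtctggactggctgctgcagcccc
Tspan32: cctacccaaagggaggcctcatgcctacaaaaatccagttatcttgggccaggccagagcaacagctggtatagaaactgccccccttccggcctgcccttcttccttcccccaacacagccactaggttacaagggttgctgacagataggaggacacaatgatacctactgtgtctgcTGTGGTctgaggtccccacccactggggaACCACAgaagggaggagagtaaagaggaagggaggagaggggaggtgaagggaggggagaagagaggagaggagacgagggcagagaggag
The letters were present in 16.8% of 32851 promoters of this length. They were in 3 of the 12 promoters of the 10 matched genes among the 12 higher ones, and in 2 of the 8 promoters of the 8 matched genes among the 12 lower ones. By gene these are 3 of 10 and 2 of 8, where the share over all genes of the table was 18.9%. The promoter of Cd8a, which differed in mRNA and in chromatin, has no match and is not shown. The 3 sequences shown all have matches, while most of the matched genes in both sets have none. A match of letters is not a site of binding, and the counts are too small to set against the share of all promoters.

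Gene groups described the difference to the CD4 side further. Of 26 cytotoxic and killer receptor genes 19 were in the table, but only Nkg7 and Ctsw were above 0 in enough cells to be counted, and both were higher by at least 0.5, where 0.391% of all genes counted were. Nkg7 was counted only because of the CD8 SP cells, so its place among the higher genes follows in part from the filter. The others were rare. Klrd1, which encodes CD94, was above 0 in 17.2% (10.2 to 26.4) of CD8 SP cells and 0 of 87 CD4-side cells, whose median depth was lower, and Klrd1 was left in 9.68% of CD8 SP cells after thinning. Cst7, an inhibitor of granule cathepsins, had 14% against 0 of 87. Gzmb, which encodes granzyme B, was above 0 in 3.23% of CD8 SP cells, and Gzma, granzyme A, in 10.8%, below the 35.3% of the cells outside the 300.

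Among 14 CD4 lineage and helper genes, 9 were counted and none reached 0.5 in either direction, with a median of -0.04 beside 0.02 for all genes. Of all genes counted, 0.391% were that much higher and 0.156% lower. The lists of this paragraph would therefore rarely hold one. Zbtb7a, a relative of Zbtb7b, was above 0 in 29% of CD8 SP cells and 9.2% of the CD4 side, or 15.1% and 3.45% thinned. Of the 15 regulatory and agonist genes, 4 were counted and none reached 0.5. Tnfrsf4, which encodes OX40, was the largest difference there at -0.32, with 6.45% against 25.3% of cells (3.23% and 21.8% thinned), and Ikzf2, which encodes Helios, was at 0.25, with 39.8% against 21.8%. Of 17 quiescence and naive T cell genes counted, 3 were above 0 in difference, against 56.4% of all genes counted. None reached 0.5, and the median was -0.10 beside 0.02. Slfn2 was at -0.32, and Foxp1 at -0.31.

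All 23 genes of the T cell receptor and its signaling were counted, and none reached 0.5, where 0.391% of all genes counted were that much higher and 0.156% lower, so a list of this size would rarely hold one. Cd28 at -0.45 and Thy1 at 0.47 were the ends of that range, and Cd3e, a chain of the receptor complex, was at 0.36. Of 17 MHC class I presentation genes counted, none reached 0.5 either, with a median of -0.02 beside 0.02 for all genes. H2-Q7 was at 0.25 and above 0 in 54.8% of CD8 SP cells and 39.1% of the CD4 side. Of 22 interferon response genes counted, only Ifi27l2a reached 0.5, downward, and 11 of the 22 lay on either side of 0. Against the rest of the 300, 17 of the 22 were below 0, with a median of -0.03, where 57.9% of all genes were above 0. Reads of the MHC class I genes can be split between near-identical copies, so their values are uncertain.

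A pair of genes that mark exit from the thymus was also looked at. S1pr1, the receptor that draws cells out of the thymus, was above 0 in 40.9% (30.8 to 51.5) of CD8 SP cells and 40.2% (29.9 to 51.3) of the CD4 side, against 2.6% of the other cells and 10% of class II high cells. Thinned, S1pr1 was in 26.9% and 29.9% of the first pair of groups. Cd69, which holds cells in the thymus, was found in 17.2% and 16.1%, or 8.6% and 9.2% thinned. In the 93 CD8 SP cells, 33 had S1pr1 without Cd69, 11 Cd69 without S1pr1, 5 both and 44 neither. The CD4 side divided into 29, 8, 6 and 44 cells in the same order. Of 17 egress and homing genes counted, Ccr9 alone reached 0.5, in a list that does not hold Klf2 and Ccr7, where 0.391% of all genes counted were that much higher.

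**Figure D4:**
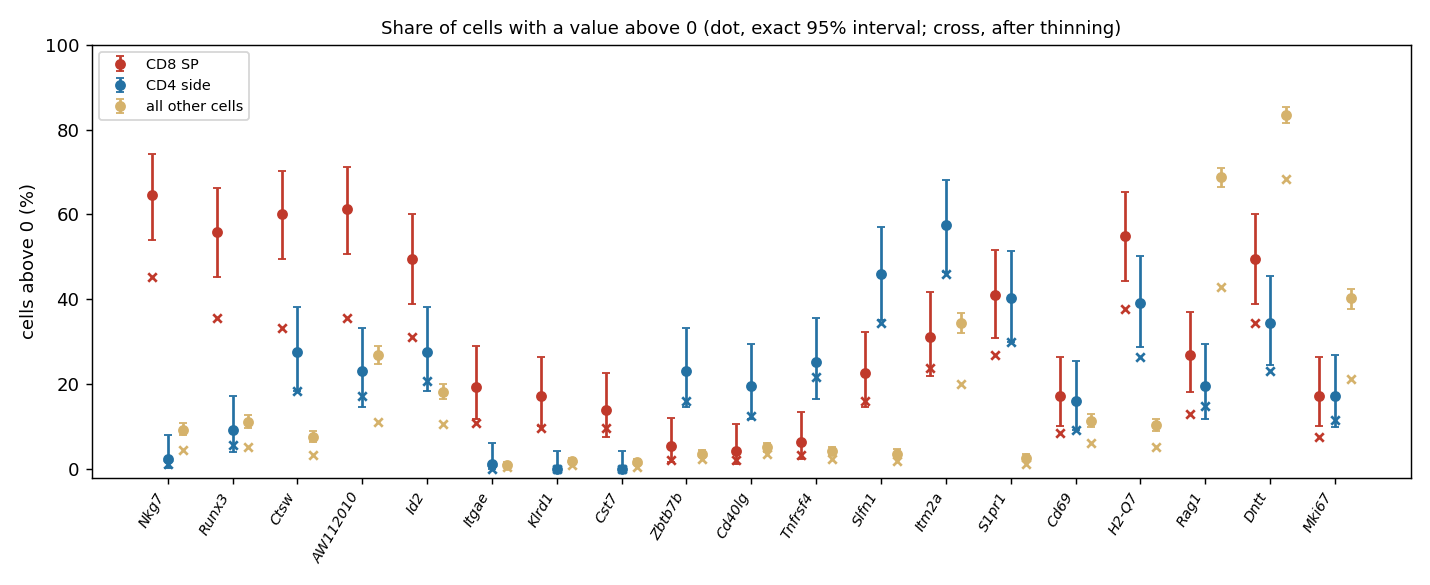
Percentage of cells with a value above 0 for 19 genes in CD8 SP cells, the CD4 side and all other cells. Dots carry exact 95% intervals and crosses are shares after thinning to 1300 steps. The shares of Nkg7 (64.5% against 2.3%) and Runx3 (55.9% against 9.2%) differ between CD8 SP cells and the CD4 side. Those of S1pr1 (40.9% and 40.2%) are close. Neither Nkg7 nor Runx3 was above 0 in 24 of the 93 CD8 SP cells, so single cells overlap.

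Against the whole rest of the 300, 2520 genes were counted, of which 5 were higher by at least 0.5, or 0.198%, and 1 lower, or 0.0397%. The 5 were Nkg7 at 0.99, Cd8a at 0.94, Rgcc at 0.62, Ccr9 at 0.54 and Runx3 at 0.53, and the lower gene was Tspan32 at -0.57. Ifi27l2a, Gm12840, Igfbp4 and Cd28 followed at -0.49, -0.49, -0.42 and -0.42. With Cd8b1 of at least 1 in place of 2, Nkg7 and Cd8a alone stayed past 0.5, and Tspan32 did not. Rgcc was lost with 200 cells, Ccr9 with Cd8a in place of Cd8b1, and on log2(thinned step + 1) Nkg7 alone stayed. In the cells with both coreceptors, Nkg7 was above 0 in 38.9%, Runx3 in 41.7% and Ctsw in 50%, while Rag1, in 63.9%, lay above both CD8 SP cells and the CD4 side. Thinned, the shares were 27.8% for Nkg7, 16.7% for Runx3, 33.3% for Ctsw and 47.2% for Rag1. The cells with neither coreceptor had Nkg7 in 13.1% and Runx3 in 28.6%, or 11.9% and 17.9% thinned.

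Against the cells outside the 300, 3422 genes were counted. Of these 67 were higher by at least 0.5, or 1.96%, and 84 lower, or 2.45%. On log2(thinned step + 1) 24 and 20 were past 0.5, and all of these were among the 67 and 84. The median over all genes was -0.034. Maturation genes chose the cells, so this contrast describes the choice of cells. Tmsb10, an actin-binding thymosin, had the largest difference, at 3.11, with means of 5.87 ± 0.47 and 2.76 ± 1.98. Tmsb4x, its relative, was at 1.19, and Cotl1, another actin-binding protein, at 1.14. Ifi27l2a was at 2.06. The class I genes B2m at 2.02, H2-D1 at 1.94 and H2-K1 at 1.82 were next, and 7 of the 17 class I presentation genes reached 0.5 upward and none downward, with a median of 0.30, where 1.96% of all genes counted were higher. Ccnd2, cyclin D2, came next, followed by Nkg7 at 1.19 and Bcl2 at 1.15.

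The 10 largest negative differences included genes of chromatin, of cell division and of receptor rearrangement. Hmgb1 was at -1.71, Ly6d at -1.67, Hist1h2ap at -1.56, Gm4258 at -1.51, Dntt, the terminal transferase of receptor rearrangement, at -1.43, H2afz at -1.39, Hmgb2 at -1.39, Stmn1 at -1.34, Ptma at -1.26 and Ap3s1 at -1.17. All 18 proliferation genes were counted, 8 were lower by at least 0.5 and none higher, with a median of -0.43, where 2.45% of all genes counted were lower and the median was -0.03. Of 15 DP stage genes counted, 10 were lower and none higher, with a median of -0.67 beside the same values for all genes. Even so, Ly6d was above 0 in 59.1% of CD8 SP cells and 83.3% of class II high cells.

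Some genes of T cells were lower in CD8 SP cells than outside the 300. Cd8a was at -0.41 against the other cells and Ccr9 at -0.33, while both were higher than on the CD4 side. Thy1 was at -0.60. Tcf7 at -1.02, Satb1 at -0.94 and Bcl11b at -0.78, which encode factors of T cell identity, were lower in CD8 SP cells than outside the 300, and Lef1 was higher at 0.59. Against the CD4 side Satb1 was at -0.29.

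The 93 cells varied among themselves. Nkg7 and Runx3 were found together in 43 cells, Runx3 alone in 9, Nkg7 alone in 17 and neither in 24. Of the 18 cells with Itgae, 17 also had Nkg7. Of the 16 cells with Klrd1, 15 had Nkg7. Nkg7 and Ctsw were found together in 44 cells. Depth differs between cells, and its part in these joint counts was not tested.

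As a further description, the cells were ranked by the maturation score that had chosen them, and the upper 46 were set against the lower 47. The score comes from the rule, so nothing is supported by this split. Depth differed too, with median step totals of 2588.5 and 2195. Of 2772 genes counted, 7 were higher by at least 0.5 in the upper cells, or 0.253%, and 3 lower, or 0.108%. The 7 were Ifi27l2a at 0.65, Cox7a2l at 0.63, Saraf at 0.58, S1pr1 at 0.56, Arl4c at 0.56, H2-K1 at 0.54 and Ms4a6b at 0.51. S1pr1 was above 0 in 27 of 46 upper cells and 11 of 47 lower cells, or 58.7% and 23.4%, and in 39.1% and 14.9% after thinning. The 3 lower genes were Srsf3 at -0.66, Rgcc at -0.56 and Lcp1 at -0.54. Cd8b1 differed by 0.36. Nkg7 differed by 0.11 between the upper and lower cells, Runx3 by -0.05, Ctsw by 0.09 and Cd8a by 0.11. Dntt was above 0 in 50% and 48.9% of them.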

How the data were processed

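The scRNA library was processed by the authors with Cell Ranger 1.3.1 on GRCm38.p5, per the labels' processing notes, and deposited as a table of 8846 genes in 1993 cells in quantile-normalized log2 values. No gene counts were used here. The authors deposited the scATAC data as counts per cell in 138317 peaks of 4000 bases. Peaks were placed on GENCODE M21 (GRCm38): 24.9% of peak centers lay within 1 kb of a start, against 5.87% after a shift of 1 Mb.

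Groups, mean differences, shares with exact 95% intervals and thinned shares were computed in Python 3 with numpy, pandas and scipy, and the scripts were checked on simulated data. Genes above 0 in 20% of cells on 1 side or more were counted, without the 8 genes of the rule, and a difference of 0.5 was the threshold. No test was made: the scRNA data are 1 library. Doublets were not called. Named genes were the rule genes, the given markers, the 12 highest and 12 lowest against the CD4 side, the 10 and 10 against the other cells, the 5 and 5 against the rest of the 300, and list members. The split of the CD8 SP cells by score and the promoter search were added after the data were seen, and so were their genes. Members and lists were chosen with earlier results of these data known. Alternatives covered the number of cells, the coreceptor thresholds, cells with other markers, the scale, the filter, the threshold, and, for chromatin, the distance, the label series and all peaks.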

Additional observations from a re-analysis of the deposited data

How the results depend on the processing

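All 89 named-gene differences of 0.5 or more kept their direction under each alternative they were run under. The number of CD8 SP cells was 59 with 200 cells in place of 300, 47 with Cd8b1 of at least 3 and 51 with Cd8a of at least 2. On log2(thinned step + 1), the counts were 2 higher and 0 lower against the CD4 side, 1 and 0 against the rest of the 300, and 24 and 20 against all other cells. With a difference of at least 0.3 they were 45 and 22, 32 and 10, and 140 and 237 in that order. Against the rest of the 300, the higher genes numbered 2 with Cd8b1 of at least 1, 12 with Cd8b1 of at least 3 and 8 with Cd8a, and the lower genes 0 with Cd8b1 of at least 1. The lower genes there numbered 2 with 200 cells, without cells with at least 2 innate or gamma delta markers, and without class II high cells, the last chosen after the data were seen. Among genes whose interval over all sorted cells left out 1, the chromatin ratio turned in the label series from 31000 for Cd8b1 (0.845), Ccr9 (0.676), Tspan32 (5.07) and Satb1 (1.51), and for Satb1 (1.12) within 10 kb. In that series the first 3 rest on at most 6 counts each and Satb1 on 33 and 74. Of all 33 genes compared, whatever their interval, 15 lay on the other side of 1 in that series, 8 within 10 kb and 5 with all peaks. The cause was not tested. Without the class II high cells, 12 genes rather than 10 were higher than on the CD4 side. No paired analysis was possible because the scRNA data are 1 library with no replicate, and leaving out a replicate was not possible for the same reason. Values above 0 depend on depth, so a gene at 0 in a cell may be expressed there.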

Other observations

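The 84 cells with neither coreceptor held a small set with innate lymphocyte genes. Of these cells, 8 held at least 2 of the 4 innate markers in the table, against 5 of the 93 CD8 SP cells and 0 of 87 on the CD4 side. Klrc2, which encodes a killer receptor, was above 0 in 8.33% of them and in 0 of 93 CD8 SP cells. Of 30 class II high cells, 12 also held at least 2 of the 4, so these markers alone do not single out innate lymphocytes. Klrd1 is 1 of the 4 markers, so its share adds nothing to the count. That share was 11.9% in the cells with neither coreceptor, below the share in CD8 SP cells. Of their 11 cells with Nkg7, 8 also had Klrd1. Gzmb was above 0 in 5.95%.

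Ighm was above 0 in 54.8% of CD8 SP cells and 35.6% of the CD4 side, both shares as deposited. Igkc was above 0 in 28% and 11.5%, or 17.2% and 4.6% after thinning. The mean Ighm of CD8 SP cells differed by 0.38 from the CD4 side but by -0.39 from all other cells. All other cells thus had the higher mean Ighm. For Igkc the same differences were 0.19 and 0.16. Only 2 of the 93 cells held Cd79a.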
